A study of Homo sapiens with 18 samples.

Results

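NRF2 target genes were followed in HepG2, a human liver tumour cell line, across 6 groups of a study of ligands for LRH-1, a nuclear receptor of liver metabolism. The 9 genes were chosen by symbol, as NRF2 targets of glutathione, thioredoxin, heme and NADPH function, out of 35238 gene rows in the count table: SLC7A11, GCLC, GCLM, TXNRD1, SRXN1, HMOX1, NQO1, PGD and TALDO1. All 9 passed the filter on low counts, as did 14797 genes in all. Each group had 3 libraries. Cells of 2 groups received only a vehicle, DMSO or ethanol, each at 0.1%. A dose of 10 µM was used for 3 small molecules, named 6N, 10CA and 6N-10CA. DLPC, short for dilauroylphosphatidylcholine, is a phospholipid and was used at 100 µM. All groups were treated in medium whose serum had been charcoal-stripped. The groups carry no genetic change that the labels name, and the length of treatment is not given in the sources used here. The labels do not say which vehicle goes with which compound; DMSO was taken for the small molecules and ethanol for DLPC from knowledge of the study.

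NRF2, encoded by NFE2L2, is a transcription factor that is held low by KEAP1, an adaptor that hands it to a CUL3 ubiquitin ligase. When electrophiles or oxidants modify KEAP1, NRF2 builds up, pairs with a small MAF protein and binds antioxidant response elements, short DNA motifs near genes of glutathione synthesis, thioredoxin reduction, heme breakdown and NADPH supply. BACH1 competes for the same elements and holds back HMOX1 in particular. In liver this program handles reactive drug metabolites. Several targets answer to other regulators too: SLC7A11 to ATF4, and NADPH-producing genes to the lipogenic factor SREBP1.

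Libraries held 28135967 to 34992442 counts, and members had 418 to 22678 counts in a library, far above the 3 counts taken as the floor. The cells matched their label: 12 of 12 hepatocyte markers, AFP and ALB among them, had a mean above 5 CPM (counts scaled to a common library size). Of 12 markers of blood, endothelial and stromal cells, the blood cell markers PTPRC and CD3E and the stromal COL1A1, COL3A1 and LUM lay under 1 CPM. Above 5 CPM lay 6, the myeloid LYZ (314 CPM) and CD68 (91.1 CPM), the stromal ACTA2 (99.1 CPM) and PDGFRB (8.20 CPM), and the endothelial CDH5 (18.8 CPM) and PECAM1 (13.5 CPM), with the endothelial VWF at 4.10 CPM. The summed level of these 12 was 477 to 525 CPM with 6N, 498 to 510 CPM with 6N-10CA and 532 to 549 CPM with DMSO. It was 529 to 576 CPM with 10CA, 560 to 604 CPM with ethanol and 572 to 639 CPM with DLPC. The part of these differences in the results below was not tested. The labels do not say that replicates were separate cultures, so each p-value speaks only for the spread among these libraries, which may be technical. In bulk RNA, fewer expressing cells and less RNA per cell cannot be told apart.

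Per length of exon, the members spanned a wide range of levels. NQO1 was highest at 210.1 CPM per kb of merged exons (mean over 18 libraries), followed by PGD at 139.9, TALDO1 at 128, HMOX1 at 64.0, SRXN1 at 43.0, TXNRD1 at 26.2, GCLC at 9.33, GCLM at 5.37 and SLC7A11 at 1.88. NQO1, PGD, TALDO1, HMOX1, SRXN1 and TXNRD1 thus stood above both subunits of the glutathione-making ligase and above the cystine importer. Over the 18 libraries the coefficient of variation of CPM was lowest for TALDO1 at 3.92% and highest for SLC7A11 at 13.6%. SLC7A11 also had the lowest counts. Reads of overlapping genes cannot be told apart because the counting is not stated to use strand. NQO1, GCLC, TXNRD1, SRXN1 and SLC7A11 each overlap another annotated gene, and PGD has a processed pseudogene, PGDP1.

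Promoter sequence from RefSeq (GRCh38.p14) was matched for 7 of the 9 members, not for HMOX1 and SLC7A11, in windows of 250 bases before to 50 after each start. The core of the antioxidant response element, TGACNNNGC, was searched on both strands. It was found in 4 of 8 windows, those of PGD, GCLM and both starts of TXNRD1, and in 13.3% of all 35116 promoter windows of that length. The matches are shown because they are the letters through which NRF2 is known to act, each on the strand that reads TGAC first, with the match in capitals and 10 flanking bases on either side. A match is a description of these letters only. The sites are PGD at chr1:10398853-10398881, GCLM at chr1:93909446-93909474, and TXNRD1 at chr12:104215670-104215698 for the first start and chr12:104286920-104286948 for the second.
PGD: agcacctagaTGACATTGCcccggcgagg
GCLM: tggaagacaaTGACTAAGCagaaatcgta
TXNRD1, first start: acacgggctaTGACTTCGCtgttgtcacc
TXNRD1, second start: agagtcagaaTGACAAAGCagaaatccac
These starts are RefSeq's. The first start of TXNRD1 is also the start of its GENCODE gene span. The other starts differ from the ends of the GENCODE gene spans given below, which also take in transcripts that start further upstream. The match lay 193 bases before the RefSeq start in PGD and 26 in GCLM. By the GENCODE spans it falls inside the PGD gene, in an intron of its longer form, and touches the first base of GCLM. In TXNRD1 it lay 91 and 94 bases before the first and second RefSeq start, and the first window held 1 more match. A sterol response element core, TCACNCCAC, was found on neither strand of any member window, and in 1.13% of all windows. The 250 bases before the RefSeq start of PGD (chr1:10398814-10399063, plus strand) are shown because PGD was the member called against DMSO, with the same match in capitals as it reads on the gene's strand.
PGD, before the RefSeq start: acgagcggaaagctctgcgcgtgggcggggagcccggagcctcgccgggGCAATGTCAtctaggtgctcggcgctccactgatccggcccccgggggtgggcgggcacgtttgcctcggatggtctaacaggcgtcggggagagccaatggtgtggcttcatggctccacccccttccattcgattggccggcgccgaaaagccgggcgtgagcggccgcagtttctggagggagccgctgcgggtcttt

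Across the 6 groups the differences in the members were small. PGD and NQO1 differed among the groups, with a Benjamini-Hochberg adjusted p of 0.0209 and 0.0348 by the quasi-likelihood test of edgeR, as did 5.23% of all tested genes; the other 7 members did not pass. DESeq2 called SRXN1 as well, and without the filter on low counts HMOX1, PGD and SRXN1 passed and NQO1 did not. PGD and NQO1 had their lowest mean with 6N. The largest of the 72 log2 fold changes, 9 members in 8 comparisons of a pair of groups, was 0.34, and 2 of the 72 passed. For PGD the order of group means was DLPC, 6N-10CA, DMSO, ethanol, 10CA and 6N, and in that order 10CA and 6N were the only neighbours whose libraries did not overlap. For NQO1 the order was ethanol, DLPC, DMSO, 10CA, 6N-10CA and 6N, with no overlap between 10CA and 6N-10CA alone. SRXN1 was highest with 6N, followed by 10CA without overlap. For the other 6 members all neighbours overlapped. Without any 1 of the 6N libraries 0 members passed. Without any other single library PGD still passed, while NQO1 was lost without ethanol replicate 1, 2 or 3 and without replicate 1 or 3 of 6N-10CA or DLPC.

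**Figure D1:**
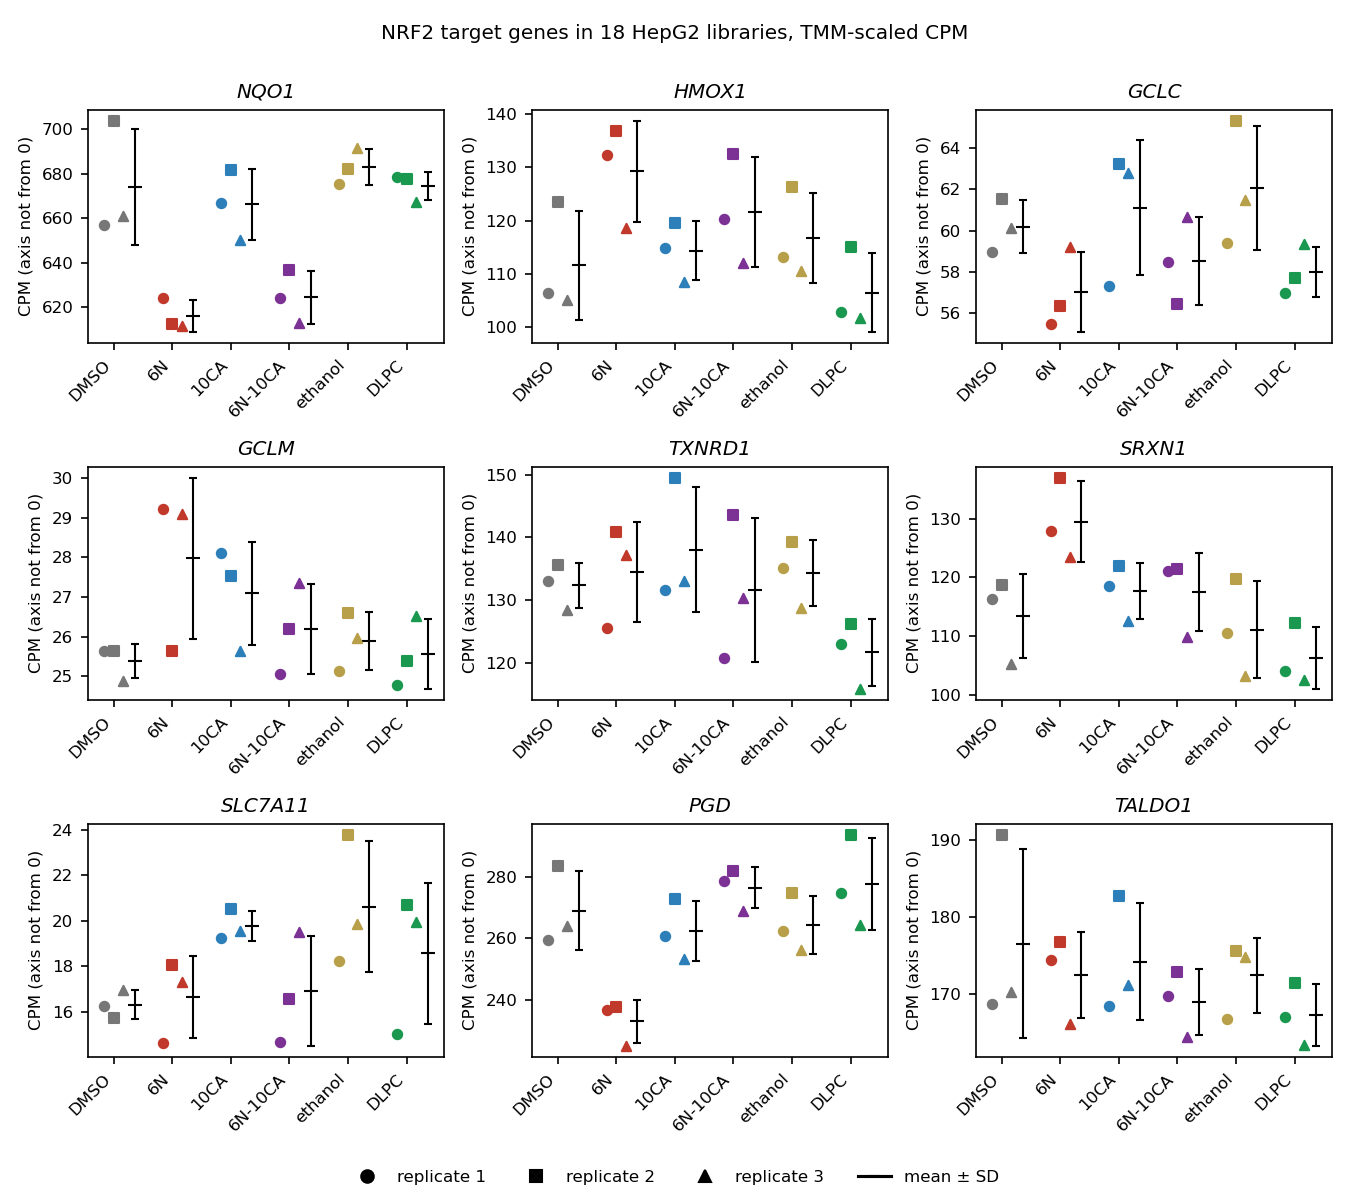
TMM-scaled CPM of each member (vertical axes, not starting at 0) in the 18 libraries, by group (horizontal axis); symbols give the replicate number, and bars the mean ± SD of 3 libraries. PGD and NQO1 are lowest with 6N, at 233 and 616 CPM, while HMOX1 and SRXN1 have their highest mean there, at 129 CPM each.

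With 6N, 1 of the 9 members passed the test: PGD, which encodes 6-phosphogluconate dehydrogenase, an NADPH-producing step of the pentose phosphate pathway (GRCh38 chromosome 1, 10398592 to 10420144). Its level was 259.6, 283 and 264 CPM with DMSO and 237, 238 and 225 CPM with 6N. All libraries with 6N were below all with DMSO. The fall was from 269 ± 12.7 to 233 ± 7.03 CPM (mean ± SD, n = 3), a log2 fold change of -0.21 (SE 0.05; edgeR adjusted p = 0.0355). Of all tested genes 1.14% were called in this comparison. The call did not hold when any 1 of the 6 libraries was left out (log2 fold change -0.23 to -0.17, adjusted p from 0.0525 to 0.181), in a fit of only these groups (adjusted p = 0.133), or against ethanol (adjusted p = 0.0616).

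The other members did not pass with 6N, and their differences had both signs. NQO1, the quinone reductase long used as a readout of NRF2 activity (chromosome 16, 69706996 to 69726951), stood at 657, 704 and 661 CPM with DMSO and at 624, 612 and 611 CPM with 6N. Its libraries with 6N were all lower, with a log2 fold change of -0.13 (SE 0.04; edgeR adjusted p = 0.114). SRXN1, sulfiredoxin, which repairs over-oxidised peroxiredoxins (chromosome 20, 646615 to 653370), had 116, 119 and 105 CPM with DMSO against 128, 137 and 124 CPM with 6N. Here the libraries with 6N were all higher, at a log2 fold change of 0.19 (SE 0.06; edgeR adjusted p = 0.253). HMOX1, heme oxygenase 1, which opens heme and releases iron (chromosome 22, 35380361 to 35394214), stood at 106, 123 and 105 CPM with DMSO and at 132, 137 and 119 CPM with 6N. The highest DMSO library overlapped the lowest 6N library, and the log2 fold change was 0.21 (SE 0.08; edgeR adjusted p = 0.329).

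Among the glutathione genes, GCLM, the modifier subunit of glutamate-cysteine ligase (chromosome 1, 93885205 to 93909456), was at 25.6, 25.6 and 24.9 CPM with DMSO and 29.2, 25.6 and 29.1 CPM with 6N, a log2 fold change of 0.14 (SE 0.06). Its catalytic partner GCLC (chromosome 6, 53497341 to 53616970) stood at -0.08 (SE 0.05), so the estimates for the subunits had opposite signs, neither of them called. SLC7A11, the cystine importer (chromosome 4, 138164097 to 138242349), had a log2 fold change of 0.03 (SE 0.12), TXNRD1, the cytosolic thioredoxin reductase (chromosome 12, 104215779 to 104350305), one of 0.02, and TALDO1, the transaldolase of the non-oxidative pentose phosphate branch (chromosome 11, 747329 to 765024), one of -0.03. In all, 5 of 9 members had an unadjusted p under 0.05 with 6N, as did 9.35% of all tested genes. Libraries did not overlap for 3 of 9, against 13.6% of all genes. The median log2 fold change of the members was 0.02, and that of all genes 0.00.

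The lower PGD with 6N came beside a much larger fall of SREBP1 targets, whose part in it was not tested. Of 11 measured SREBP1 targets 10 fell and 0 rose, with a median log2 fold change of -0.70. They include FASN, the fatty acid synthase, at -1.17, and SREBF1 itself at -1.04. In the list of pentose phosphate and NADPH genes, 1 of 10 measured members fell, PGD itself, and 0 rose. TKT, the transketolase, stood at -0.12 (SE 0.04; edgeR adjusted p = 0.281); it did not pass, and was picked out after its values were seen. In the other comparisons of a treatment with its vehicle, PGD had the sign of the SREBP1 list's median but was not called. The median was -0.05 with 10CA, 0.12 with 6N-10CA and 0.24 with DLPC, and PGD stood at -0.04, 0.04 and 0.07. Between the vehicles the signs differed, with a median of 0.04 and PGD at -0.02 for ethanol against DMSO. The comparisons with DMSO share their DMSO libraries.

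**Figure D2:**
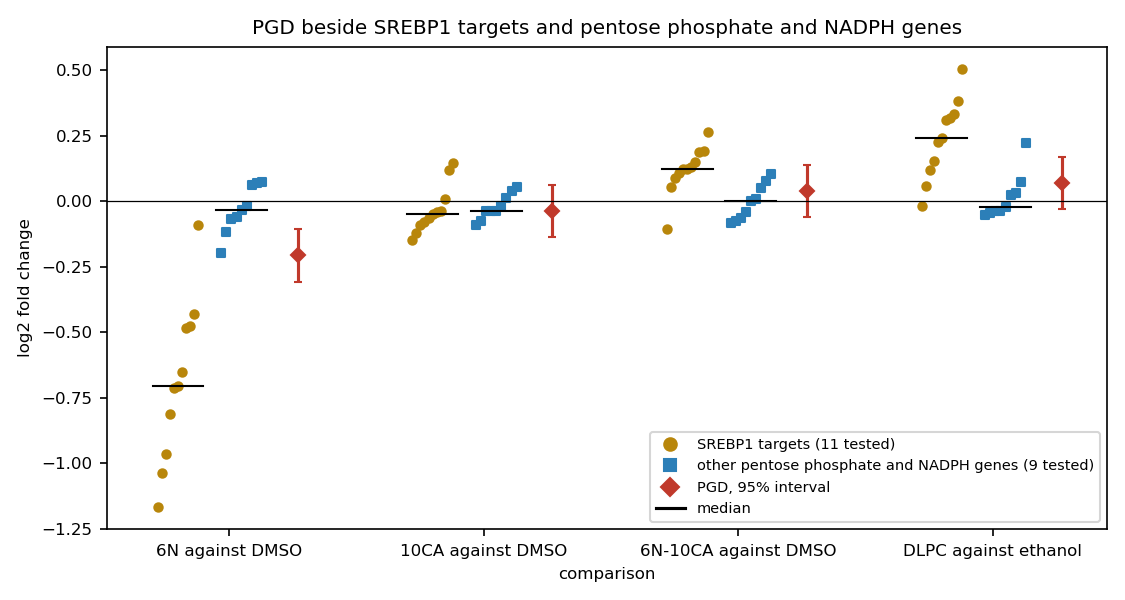
Log2 fold change (vertical axis) in the 4 comparisons with a vehicle (horizontal axis), with 1 point per gene for 11 SREBP1 targets and 9 other pentose phosphate and NADPH genes, black lines for their medians, and PGD with its 95% interval. With 6N the SREBP1 targets lie at a median of -0.70 and PGD at -0.21, and the PGD interval includes 0 in the other 3 comparisons.

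With 10CA no member passed the test. SLC7A11 showed the widest difference, at 16.2, 15.7 and 17.0 CPM with DMSO and 19.3, 20.5 and 19.6 CPM with 10CA. All 10CA libraries were higher, with a log2 fold change of 0.28 (SE 0.12; edgeR adjusted p = 0.680). GCLM stood at 0.09, TXNRD1 at 0.06 and SRXN1 at 0.05. NQO1, PGD and TALDO1 lay between -0.04 and -0.02. The edgeR test called 0 of 9 members and 0% of all genes. DESeq2, limma-voom and the fit with the replicate block, which called 0.216% of all genes, gave 0 members as well. At an unadjusted p under 0.05 there was 1 member, SLC7A11, and 6.98% of all genes. The 95% interval was within 0.5 log2 units of no change for 8 of 9 members, SLC7A11 being the exception with 0.02 to 0.53.

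With 6N-10CA the NQO1 libraries were at 624, 637 and 613 CPM, all below the DMSO libraries, a log2 fold change of -0.11 (SE 0.04; edgeR adjusted p = 0.265). With the replicate number as a block NQO1 was lower at an adjusted p of 0.0328, the 1 member so called, where 3.80% of all genes were called. HMOX1 stood at 120.4, 133 and 112 CPM, overlapping DMSO, with a log2 difference of 0.12 (SE 0.08; edgeR adjusted p = 0.642). PGD was at 279, 282 and 269 CPM, a log2 fold change of 0.04 (SE 0.05). The other 6 members lay between -0.06 for TALDO1 and 0.05 for SLC7A11. Without the block, edgeR called 0 of 9 members and 0.264% of all genes; 1 member, NQO1, had an unadjusted p under 0.05, as did 9.91% of all genes; DESeq2 called NQO1 and limma-voom 0.

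With DLPC, 8 of the 9 members had a log2 fold change below 0 against ethanol, but none passed the test. The median was -0.07, and that of all genes 0.00. The count rests on the vehicle: against DMSO, NQO1 (0.00), GCLM (0.01), SLC7A11 (0.19) and PGD (0.05) were above 0, and 5 of 9 below, again with 0 called. TXNRD1 stood at 135, 139 and 129 CPM with ethanol and 123, 126 and 116 CPM with DLPC, all lower, at -0.14 (SE 0.06; edgeR adjusted p = 0.334). HMOX1 was at 113, 126 and 110.5 CPM with ethanol and at 103, 115 and 102 CPM with DLPC. These overlapped, with a log2 fold change of -0.13 (SE 0.08; edgeR adjusted p = 0.498), but with the replicate number as a block HMOX1 was lower at an adjusted p of 0.0315, the 1 member so called among 6.74% of all genes. SLC7A11 stood at -0.15 (SE 0.12), GCLC at -0.10, SRXN1 at -0.07, TALDO1 at -0.04, and GCLM and NQO1 at -0.02 each. PGD was the member with the opposite sign, at 0.07 (SE 0.05). Without the block, edgeR called 0 of 9 members and 1.04% of all genes; 1 member, TXNRD1, and 13.0% of all genes had an unadjusted p under 0.05, and DESeq2 and limma-voom called 0. The dose of DLPC differs from that of the small molecules, so these values stand beside them without a comparison.

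**Figure D3:**
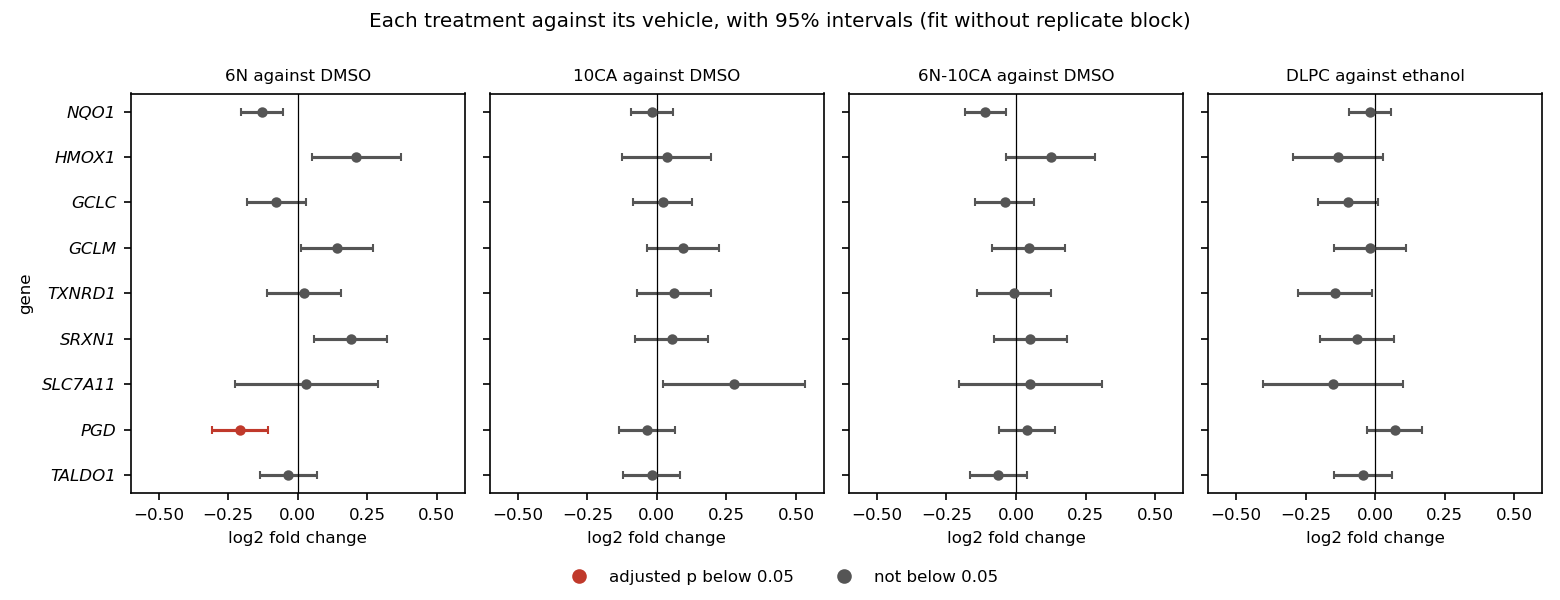
Log2 fold change (horizontal axes) of the 9 members (vertical axis) for each treatment against its vehicle, with 95% intervals from the fit without the replicate block. The 1 red point is PGD with 6N at -0.21, and the widest intervals are those of SLC7A11.

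Between the vehicles no member passed the test. SLC7A11 stood at 18.2, 23.8 and 19.9 CPM with ethanol, all above DMSO, a log2 fold change of 0.34 (SE 0.12; edgeR adjusted p = 1.00) and the largest of the 72. Its level with 10CA, 19.8 ± 0.657 CPM, lay below its level with ethanol, 20.6 ± 2.86 CPM. The other 8 members lay between -0.03 and 0.06. By edgeR 0 of 9 members and 0% of all genes were called; 1 member, SLC7A11, and 3.24% of all genes had an unadjusted p under 0.05, and DESeq2, limma-voom and the block, which called 0.122% of all genes, gave 0 members.

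The small molecules were compared with each other at the matched dose of 10 µM, in 3 pairs. PGD was higher with 6N-10CA than with 6N in all libraries, 276 ± 6.72 against 233 ± 7.03 CPM (n = 3), a log2 fold change of 0.25 (SE 0.05; 95% interval 0.15 to 0.35). The edgeR adjusted p was 0.00789, and 0.0104 adjusted over the 3 pairs together. It was the 1 member of 9 called, where 1.64% of all genes were called. The call held without each of the 6 libraries in turn (adjusted p from 0.0166 to 0.0394) and was lost in a fit of only these groups (adjusted p = 0.0535). With the block SRXN1 was called as well, lower with 6N-10CA at a log2 difference of -0.14 (SE 0.06; edgeR adjusted p = 0.309 without and 0.0110 with the block), so that 2 members passed beside 8.32% of all genes. The same 2 had an unadjusted p under 0.05 without the block, as did 14.4% of all genes.

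Between 10CA and 6N no member passed without the block, where 1.71% of all genes did. The direction ran both ways: with 10CA, PGD stood higher at 0.17 (SE 0.05; edgeR adjusted p = 0.0832; over the 3 pairs 0.104) and NQO1 at 0.11 (SE 0.04; adjusted p = 0.126), their libraries all above those with 6N. SRXN1 was lower with 10CA at -0.14 (SE 0.06; adjusted p = 0.332), without overlap, and HMOX1 at -0.18 (SE 0.08; adjusted p = 0.307), with overlap. With the replicate number as a block these 4 members were called, with edgeR adjusted p-values of 0.000864 for PGD, 0.00341 for HMOX1, 0.0137 for SRXN1 and 0.0163 for NQO1, beside 7.66% of all genes. The same 4 had an unadjusted p under 0.05 without the block, as did 13.9% of all genes, DESeq2 called NQO1 and PGD, and limma-voom 0. SLC7A11 had the widest difference of this pair, 0.25 (SE 0.12, edgeR adjusted p = 0.380), with all 10CA libraries higher. It was not called with the block (edgeR adjusted p = 0.0859). Between 6N-10CA and 10CA edgeR called 0 of 9 members and 0.230% of all genes, and DESeq2, limma-voom and the block, which called 2.36% of all genes, gave 0 members too; NQO1, at -0.09 (SE 0.04; adjusted p = 0.461), was the 1 member with an unadjusted p under 0.05, beside 8.40% of all genes. The 95% intervals of that pair reached from -0.17 to -0.02 for NQO1, from -0.07 to 0.25 for HMOX1, from -0.02 to 0.18 for PGD and from -0.13 to 0.13 for SRXN1. SLC7A11 had its widest difference and interval, -0.23 with a range from -0.48 to 0.03.

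**Figure D4:**
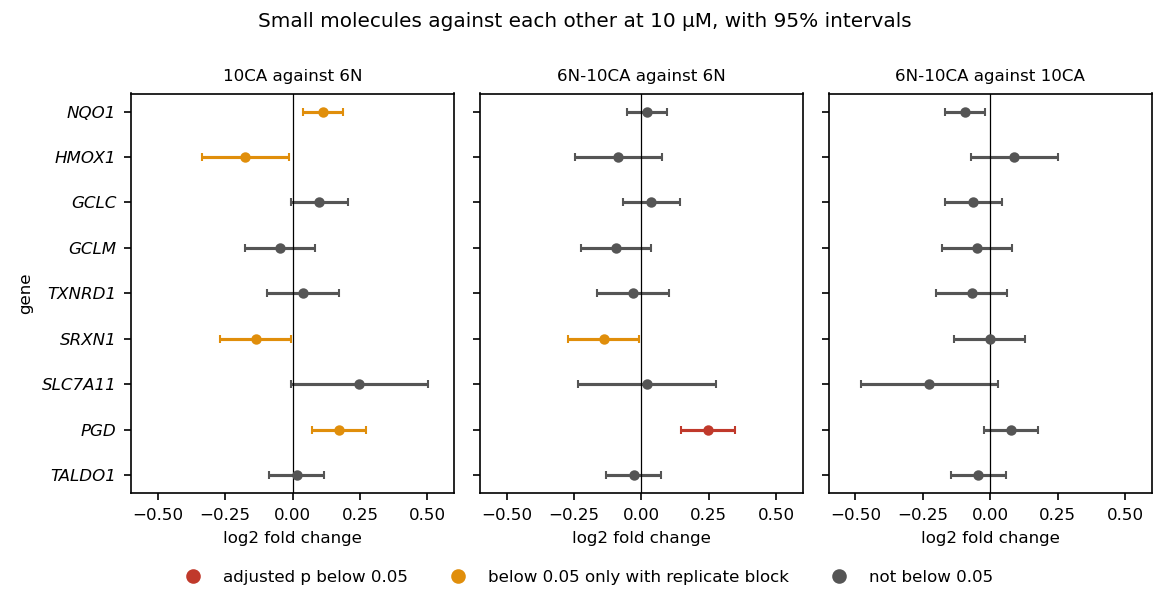
Log2 fold change (horizontal axes) of the 9 members (vertical axis) between the small molecules at 10 µM, first-named minus second-named, with 95% intervals from the fit without the replicate block; colour gives the call. PGD is called at 0.25 for 6N-10CA against 6N, and 4 members are called for 10CA against 6N only with the block.

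The regulators of the pathway were followed as mRNA. NFE2L2 lay between 198 CPM with DLPC and 214 CPM with 6N, and its log2 fold change with 6N was 0.10 (SE 0.05; edgeR adjusted p = 0.650). KEAP1 was at 132 CPM with DMSO and 120.2 CPM with 6N-10CA, a log2 difference of -0.14 (SE 0.05; edgeR adjusted p = 0.342), and within 0.05 of 0 with 6N and 10CA. BACH1, the repressor that competes with NRF2, stood between -0.11 and 0.14 in the 8 comparisons. SQSTM1, the autophagy adaptor that can sequester KEAP1, was lower with DLPC in all libraries, 268 against 309 CPM, at -0.20 (SE 0.07). Its edgeR adjusted p was 0.181, and 0.000368 with the block, which called 6.74% of all genes. Of the 14 regulators measured, 1 passed in any comparison without the block, with DLPC, where 1.04% of all genes were called. It was NFE2L1, a relative of NRF2 that controls proteasome genes. NFE2L1 rose from 138 ± 4.77 to 169.7 ± 14.2 CPM, a log2 fold change of 0.29 (SE 0.06, edgeR adjusted p = 0.0126). With the block 1 regulator was higher and 1 lower with DLPC. The block also called 1 lower with 6N-10CA than with 6N, where it called 8.32% of all genes.

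Other NRF2 targets gave calls in both directions. Of 30 listed, 28 were measured, and with 6N 1 rose and 0 fell, beside 1.14% of all genes called. The riser was EPHX1, microsomal epoxide hydrolase, from 86.7 ± 8.36 to 107 ± 2.55 CPM, a log2 fold change of 0.31 (SE 0.06; edgeR adjusted p = 0.00540). EPHX1 was also lower with 10CA than with 6N, at -0.36, and lower with 6N-10CA than with 6N, at -0.24. AKR1C2, a ketosteroid reductase whose reads can be shared with its close relatives, was lower with 10CA than with 6N at -0.58 (SE 0.14; edgeR adjusted p = 0.0296). For 10CA against 6N 2 of 28 were called beside 1.71% of all genes, and for 6N-10CA against 6N 1 beside 1.64%. With DLPC 1 rose and 1 fell, beside 1.04% of all genes. IDH1, a cytosolic NADPH producer, rose from 850.1 ± 5.06 to 991 ± 27.4 CPM, and GPX2, a glutathione peroxidase, fell from 517 ± 50.6 to 369 ± 41.2 CPM, a log2 fold change of -0.49 (SE 0.09; edgeR adjusted p = 0.0115). For 10CA and 6N-10CA against DMSO, 6N-10CA against 10CA and the vehicles, edgeR called 0 of 28 without the replicate block. With the block 1 was higher and 2 lower for 6N-10CA against DMSO (3.80% of all genes called). The block called 1 higher and 1 lower for 6N-10CA against 10CA (2.36%), and 2 higher and 3 lower with DLPC (6.74%). It called 0 higher and 6 lower for 10CA against 6N (7.66%), and 3 higher and 4 lower for 6N-10CA against 6N (8.32%). For 10CA against DMSO and between the vehicles it called 0 (0.216% and 0.122%).

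Neighbouring pathways gave calls in some comparisons, counted here without the replicate block unless stated. Of all genes edgeR called 1.14% with 6N, 0% with 10CA, 0.264% with 6N-10CA and 1.04% with DLPC. It called 1.71% for 10CA against 6N and 1.64% for 6N-10CA against 6N. Of 18 antioxidant enzymes outside the NRF2 lists, among them the superoxide dismutases and catalase, edgeR called 0 in each of the 8 comparisons. Of 12 heat shock genes it also called 0. With the block, used where numbers were taken to pair libraries, 5 heat shock genes were lower with DLPC (6.74% of all genes called). There were 4 lower with 6N-10CA against DMSO (3.80%), 3 with 6N-10CA against 6N (8.32%) and 2 with 10CA against 6N (7.66%). Of the antioxidant enzymes the block called 1 lower with 10CA than with 6N, and 1 higher with 6N-10CA than with 10CA (2.36%). In the glutathione and cysteine list of 18, which includes GCLC, GCLM and SLC7A11, 0 passed with 6N, 10CA or 6N-10CA. With DLPC 1 rose, OPLAH, the 5-oxoprolinase, at 0.21, and 1 fell, the glutamine carrier SLC1A5 at -0.24, which was also lower with 6N-10CA than with 6N at -0.22. In the heme and iron list of 16, HPX, the heme carrier hemopexin, fell with DLPC at -0.41 (SE 0.09) and no other member passed in any comparison. ATF4 also drives SLC7A11, which its list of 20 targets does not hold. In that list SLC7A5 rose at 0.20 and TRIB3 fell at -0.24 with 6N. Without the block 0 passed with 10CA, 6N-10CA or DLPC. TRIB3 was higher with 10CA and with 6N-10CA than with 6N, at 0.25 and 0.36, and DDIT4 with 6N-10CA than with 6N, at 0.33. With the block 4 ATF4 targets were higher and 0 lower with 10CA (0.216% of all genes called). It called 2 higher and 0 lower with 6N-10CA (3.80%), and 0 higher and 3 lower with DLPC (6.74%). For 10CA against 6N it called 6 higher and 2 lower (7.66%), and for 6N-10CA against 6N 2 each way (8.32%). For 6N-10CA against 10CA it called 0 higher and 3 lower (2.36%), and between the vehicles 0 (0.122%). The median of the ATF4 list was 0.06 with 10CA and 0.10 with ethanol against DMSO, where SLC7A11 stood at 0.28 and 0.34. It was 0.07 with 6N, 0.04 with 6N-10CA and -0.09 with DLPC, where SLC7A11 stood at 0.03, 0.05 and -0.15. The part of ATF4 in these SLC7A11 values was not tested.

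A large part of the members' spread followed the replicate number that the titles give. In the fit with the replicate number as a term, 6 of 9 members differed between numbers, as did 28.2% of all genes: HMOX1, SRXN1, PGD, TXNRD1, SLC7A11 and TALDO1. Replicate 2 was the highest library in 6 of 6 groups for HMOX1, TXNRD1, SRXN1, PGD and TALDO1, and replicate 3 was the lowest in 6 of 6 groups for HMOX1 and SRXN1. Mean HMOX1 was 115 CPM over the libraries numbered 1, 126 CPM over those numbered 2 and 109 CPM over those numbered 3. The log2 difference of number 2 from number 1 was 0.13 for HMOX1, 0.12 for TXNRD1 and 0.23 for SLC7A11. It was 0.07 for SRXN1, 0.06 for PGD and 0.08 for TALDO1. The widest differences of these genes in the 8 comparisons were, in the same order, 0.21, -0.14, 0.34, 0.19, 0.25 and -0.06. The difference between numbers was thus the larger for TALDO1 and the smaller for the others. Number 3 lay below number 1 for HMOX1 (-0.07), SRXN1 (-0.09), PGD (-0.04) and TALDO1 (-0.01), so their numbers 2 and 3 were further apart. The biological coefficient of variation of HMOX1 was 6.65% without and 2.84% with the replicate term. GCLM and NQO1 did not pass this test, nor did GCLC.

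The genes whose log2 CPM was most like each member's over the 18 libraries were sought among 10661 other genes whose mean reached 5 CPM. Libraries of a group share a treatment, and the labels do not say what those of a replicate number share. Pearson's r is therefore a description with no test. PGD was most like LPCAT3, a phospholipid-remodelling acyltransferase (r = 0.93), and NEU1 (0.92). HMOX1 and SRXN1 had the same first gene, MYBL2 (0.92 and 0.91), followed by HSPE1 (0.91) and TUBA1B (0.89). TXNRD1 was most like UBASH3B (0.92) and MRS2 (0.90), GCLC like ABTB2 (0.86) and TMPRSS3 (0.81), and TALDO1 like C1S and TAF5L (0.86 each). Among the genes close to NQO1 was PDIA6 (0.87). SLC7A11 was most like UHRF1BP1 and the cationic amino acid carrier SLC7A1 (0.80 each), and GCLM like ELL3 (0.75) and VAPB (0.74). After the mean of each replicate number was removed, r was 0.95 for PGD with LPCAT3 and 0.88 for HMOX1 with MYBL2.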

How the data were processed

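The authors deposited whole-number read counts per gene symbol, not normalized, for 18 libraries. Per the labels' protocols, libraries came from amplified cDNA (Nextera XT) and were read from one end. The submitters' processing notes name GRCh38 and DESeq2, with no role. The sources used here give no aligner, counter, strand setting or annotation. Since cDNA was amplified and no molecular identifier is named, reads may not be separate molecules.

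Genes were kept by edgeR's filterByExpr (minimum count 10, total 15). All 18 libraries entered 1 fit with a mean per group and TMM scaling (factors 0.972 to 1.03), tested with edgeR 4.0.16 (quasi-likelihood, R 4.3.3), two-sided, with Benjamini-Hochberg adjustment over all 14797 genes and a threshold of 0.05. "Passed" and "called" mean below it. CPM are TMM-scaled (cell markers: on total counts); log2 CPM had a prior count of 2. The script was tested on simulated data. Members, lists and the rule for named genes (members, 4 regulators, up to 4 called genes per list and comparison, and the 2 genes most like each member) were chosen with earlier results of these data known. Some genes that the rule or the lists hold are not reported here. Alternatives were limma 3.58.1, DESeq2 1.42.0, DESeq2's size factors, no filter, only the groups compared, other vehicles, the replicate block and leaving out libraries. Positions and merged exon lengths come from GENCODE release 29. Replicate pairs differed beyond sampling noise (chi-square 5.46 to 18.5 per gene).

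Numbers were taken to pair libraries where all 3 same-numbered pairs of a comparison correlated above 0.1 in their deviations from group means. This held for 7 of 8 comparisons (lowest 0.151) and not for 6N against DMSO (lowest 0.0874). Over all groups 43 of 45 such pairs did.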

Additional observations from a re-analysis of the deposited data

How the results depend on the processing

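Each member kept its sign wherever it was called, and 42 of 936 values under alternatives changed sign, none of them called in either setting. For 6N against DMSO the numbers did not meet the pairing rule; with the replicate block 4 members were called (HMOX1 and SRXN1 higher, NQO1 and PGD lower) beside 551 of all 14797 genes, with both vehicles averaged and by DESeq2 2 (NQO1 and PGD) beside 270 and 246 genes, against ethanol 1 (NQO1 in place of PGD) beside 265, and with only the groups compared 0 beside 121. With the replicate block 1 member was called when DLPC was set against ethanol (997 genes in all), 1 for 6N-10CA against DMSO (562), 4 for 10CA against 6N (1133), 2 for 6N-10CA against 6N (1231) and 6 for any difference among the 6 groups (3149); the block changed no other count of members. DESeq2 called 1 member for 6N-10CA against DMSO (173 genes) and 2 for 10CA against 6N (496 genes). With only the groups compared, 6N-10CA against 6N had 0 (109 genes). For any difference among the groups DESeq2 and the fit without the low-count filter called 3 each, beside 1619 and 1411 genes. Leaving out 1 library gave 0 to 0 members for 6N against DMSO (1 with all), 0 to 2 for any difference among the groups and 4 to 6 for the replicate number; the other counts of members did not move.

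Over all genes the count of calls under the alternatives that keep every library ranged from 121 to 551 for 6N against DMSO (169 in the main setting), 0 to 32 for 10CA (0), 13 to 562 for 6N-10CA (39), 123 to 997 for DLPC (154), 112 to 1133 for 10CA against 6N (253), 109 to 1231 for 6N-10CA against 6N (242), 10 to 349 for 6N-10CA against 10CA (34), 0 to 37 for the vehicles (0) and 766 to 3149 for any group (774). The lowest counts came with only the groups compared, or equalled 0, except for any group (limma-voom), and the highest with the block, except for the vehicles (no low-count filter). The 95% interval reached at most 0.26 log2 units to either side for SLC7A11, the member with the fewest counts.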
